A study of Mus musculus with 57 samples.

Results

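The Sin3 and NuRD corepressor subunits are 10 genes, Rbbp4, Rbbp7, Sap18, Sap30, Suds3, Sin3a, Sin3b, Mta1, Mta2 and Chd4, out of the 13319 genes named on the array. They were taken by symbol, with every probeset (a set of short array probes that reports 1 transcript or gene) annotated to them. There were 25 such probesets, 20 of which matched 1 gene and 5 of which, all of Sap18, also matched its close copy Sap18b. All 25 passed the filter on low values, which required a deposited log2 value of at least 4.5 on at least 1 array and kept 19815 of 22626 probesets.

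Sin3 and NuRD are protein complexes that bring histone deacetylases to chromatin and are best known for lowering transcription. SIN3A and SIN3B are alternative scaffolds of the Sin3 complex, while CHD4 is the ATP-dependent motor of NuRD and can remodel nucleosomes. RBBP4 and RBBP7 are paired histone-binding proteins found in both complexes. In neurons both complexes take part in setting which genes can be switched on during development and activity.

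The arrays came from male C57Bl/6NCrl mice, an inbred strain, that arrived at 42 to 49 days of age. Every animal had a free choice between 10% (w/v) ethanol and water, in drinking sessions of 18 hours that came in 4 rounds of 4 with days of abstinence between them. Tissue was taken 6 days after the last of the 16 sessions. The regions were the ventral midbrain (VMB, labelled as ventral tegmental area by the submitters), the prefrontal cortex (PFC) and the accumbens nucleus (NAc), each hybridised separately, with 19 arrays per region and 57 in all. All mice had access to ethanol, so no group without ethanol enters any comparison. Each array came from 1 mouse. The titles number the arrays up to 20 within a region, and number 10 for NAc, 6 for PFC and 20 for VMB were not analysed here. The authors describe 1 array for each region from each animal, so the regions share mice. The labels do not say that a number is the same mouse in each region. The region fits therefore took the 57 arrays as separate samples, apart from an alternative fit with the number as a block. The relation of these genes to how much each mouse drank was not analysed here.

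Each region was recognisable by its markers. The mean of the 4 tested markers of striatal projection neurons lay between 9.66 and 10.24 in NAc and between 6.55 and 7.52 in the other regions. The mean of the 3 tested cortical excitatory markers lay between 8.19 and 8.65 in PFC, and that of the 3 tested dopamine neuron markers between 8.66 and 9.24 in VMB. PFC replicate 20 is titled as PFC but carries ventral tegmental area in its other labels. Its cortical marker mean was 8.44 and its dopamine marker mean 4.75, both inside the PFC range, so it was kept as PFC. Leaving it out kept the direction and call of all 30 member differences between regions, and no relation between members in PFC was then called. The counts of overlap, spread, marker relations and member pairs at an unadjusted p were not recomputed without it. The mean of the 7 tested oligodendrocyte markers differed between regions, at 7.77 to 9.15 in PFC, 9.98 to 10.30 in NAc and 10.81 to 11.15 in VMB.

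Levels are log2 values on a common scale, made by quantile normalization of the 57 arrays together. As deposited, array medians lay between 6.26 and 6.32 in NAc, between 5.66 and 5.70 in PFC and between 5.79 and 5.86 in VMB, so that the median probeset differed by 0.72 for NAc minus PFC and by 0.55 for NAc minus VMB. On the common scale these medians were 0.03 and 0.02. Every direction below is relative to the other probesets, and it is stated where the deposited values point the other way. Each gene is described by its leading probeset, the one with the highest mean among those that match that gene alone. For Sap18 no probeset did, and its values belong to Sap18 and Sap18b together.

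The 250 bases before the RefSeq start site (GRCm38.p6) were available for all 10 genes in 12 windows. Those of 5 genes are printed, the paralog pairs Rbbp4 with Rbbp7 and Mta1 with Mta2, for comparison within each pair, and Sin3b, a scaffold high in NAc. They run 5' to 3' on the gene's strand. Capitals mark the GC box (GGGCGG) and the CCAAT box (CCAAT), each searched on both strands. The Mta1 window stops after 220 bases, where the annotated gene begins.
Rbbp4 promoter, chr4:129335371-129335620, minus strand: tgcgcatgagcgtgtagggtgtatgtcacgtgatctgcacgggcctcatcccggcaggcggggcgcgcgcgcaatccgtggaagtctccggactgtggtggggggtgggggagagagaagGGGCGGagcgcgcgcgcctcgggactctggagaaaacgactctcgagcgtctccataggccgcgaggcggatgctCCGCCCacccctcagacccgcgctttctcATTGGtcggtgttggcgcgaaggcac
Rbbp7 promoter, chrX:162760122-162760371, plus strand: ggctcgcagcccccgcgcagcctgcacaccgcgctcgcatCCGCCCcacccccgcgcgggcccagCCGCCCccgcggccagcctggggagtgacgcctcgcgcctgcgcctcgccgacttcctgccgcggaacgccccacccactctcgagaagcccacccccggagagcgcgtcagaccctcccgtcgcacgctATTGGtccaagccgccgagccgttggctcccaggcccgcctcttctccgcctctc
Sin3b promoter, chr8:72723020-72723269, plus strand: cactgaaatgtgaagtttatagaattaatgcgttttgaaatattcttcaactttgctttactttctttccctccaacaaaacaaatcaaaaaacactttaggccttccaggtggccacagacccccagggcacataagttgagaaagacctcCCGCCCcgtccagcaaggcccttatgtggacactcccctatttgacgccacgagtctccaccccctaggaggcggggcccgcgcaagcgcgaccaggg
Mta1 promoter, chr12:113098028-113098247, plus strand: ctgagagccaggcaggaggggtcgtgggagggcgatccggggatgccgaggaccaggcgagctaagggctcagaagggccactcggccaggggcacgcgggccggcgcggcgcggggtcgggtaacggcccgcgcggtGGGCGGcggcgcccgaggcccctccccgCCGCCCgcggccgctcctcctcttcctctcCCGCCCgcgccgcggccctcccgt
Mta2 promoter, chr19:8941670-8941919, plus strand: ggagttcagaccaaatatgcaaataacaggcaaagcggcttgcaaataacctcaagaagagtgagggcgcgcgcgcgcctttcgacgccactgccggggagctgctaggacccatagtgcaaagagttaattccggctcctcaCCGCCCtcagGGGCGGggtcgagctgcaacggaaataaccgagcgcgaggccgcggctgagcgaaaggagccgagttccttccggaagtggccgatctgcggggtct
A GC box was present in 11 of the 12 windows, against 32.7% of all 32851 promoter windows. These 11 belong to 9 of the 10 genes, all but Sap18. A CCAAT box was present in 5 of the 12 windows, from 4 genes, against 33.8% of all windows. These matches are counts of letters, and a GC-rich window holds more GC boxes by its composition alone. The member windows held 10 to 39 CpG dinucleotides, against a median of 6 over all windows. The E-box CACGTG, the palindrome bound by MAX with its MXD partners, occurred in 1 of the 12 windows, that of Rbbp4, against 6.02% of all windows. The ETS letters CCGGAAG occurred in 2 of the 12 windows, those of Suds3 and Mta2, against 6.91% of all windows. GC boxes occurred in genes of both main regional orders described next.

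The 10 genes fell into several regional orders. Rbbp7, Sap18, Sin3a and Sin3b, 4 genes, had their highest mean in NAc and their lowest in VMB. Suds3, Mta1 and Mta2, 3 genes, had their highest mean in PFC and their lowest in NAc. Rbbp4, Sap30 and Chd4 each had an order of their own. Neighbours in these orders that could not be separated at an adjusted p of 0.01 were NAc and PFC for Sap30, Sin3a and Chd4, and PFC and VMB for Rbbp4. As deposited, NAc stood highest for every gene but Mta1.

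**Figure D1:**
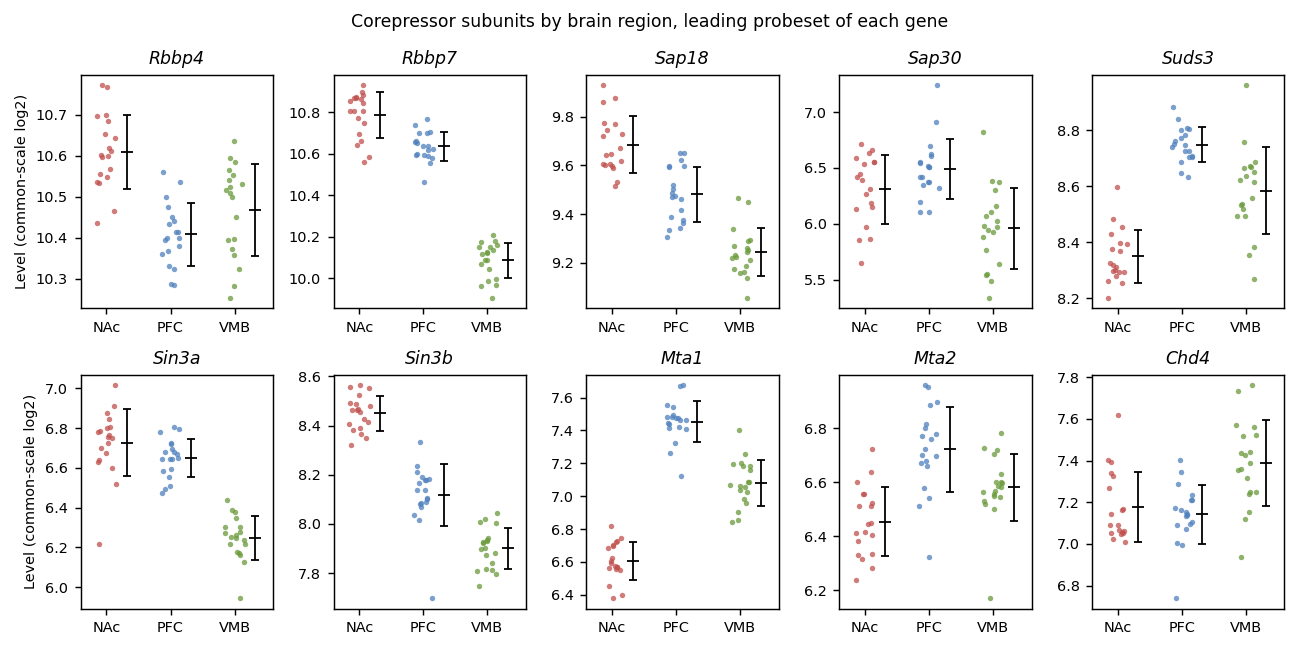
Level (common-scale log2) of the leading probeset of each gene on every array, by region, with the mean and SD at the right of each column of 19 points. Rbbp7 and Sin3a stand lowest in VMB and Mta1 stands apart as high in PFC and low in NAc, while Sap30 is widely scattered in all 3 regions. Relative to the deposited values, the position of NAc below both other regions for Suds3, Mta1 and Mta2 depends on the common scale, although Mta1 stays lower in NAc than in PFC.

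RBBP4 and RBBP7 are WD-repeat histone-binding proteins that resemble each other closely. Rbbp7 was at 10.56, 10.81 and 10.93 (lowest, median and highest) in NAc, at 10.46, 10.63 and 10.77 in PFC and at 9.91, 10.12 and 10.21 in VMB. Every VMB array lay below every array of the other regions. The difference was −0.55 ± 0.031 (SE, n = 19 per region, limma adjusted p = 4.64e-24) for VMB minus PFC and 0.70 ± 0.031 (limma adjusted p = 3.38e-29) for NAc minus VMB, a fold of 1.63. NAc exceeded PFC by 0.15 ± 0.031 (limma adjusted p = 1.72e-05), with overlapping arrays. The other Rbbp7 probeset moved the same way, with a difference of −0.61 for VMB minus PFC and of 0.84 for NAc minus VMB.

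Rbbp4 showed a different picture, and its probesets disagreed. Its leading probeset, whose array suffix (x) marks probes that may also bind other sequences, was at 10.44, 10.60 and 10.77 in NAc, at 10.28, 10.40 and 10.56 in PFC and at 10.25, 10.51 and 10.64 in VMB. The regions overlapped throughout. NAc was higher than PFC by 0.20 ± 0.032 (limma adjusted p = 1.14e-07) and higher than VMB by 0.14 ± 0.032 (limma adjusted p = 7.37e-05), while VMB minus PFC was 0.06 ± 0.032 (limma adjusted p = 0.0864, 95% interval −0.01 to 0.12). The probeset 1454791_a_at ran from 6.51 to 7.29 in NAc, from 6.32 to 8.17 in PFC and from 8.40 to 9.05 in VMB, with no overlap between VMB and either other region. It gave VMB minus PFC of 1.32 and NAc minus VMB of −1.87, the largest regional difference of any member probeset. The third, 1454875_a_at, gave 0.30 and −0.96. Both were lower in NAc than in PFC, with differences of −0.56 and −0.66, the reverse of the leading probeset. As deposited those NAc minus PFC values were 0.08 and −0.01, so this reversal rests on the common scale, whereas NAc minus VMB stayed negative at −1.29 and −0.37. Within regions the leading probeset had correlations of −0.04 and −0.42 with the other Rbbp4 probesets, which had a correlation of 0.55 with each other, as a description over 57 arrays with region means removed. Which transcripts each probeset reads was not tested.

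**Figure D2:**
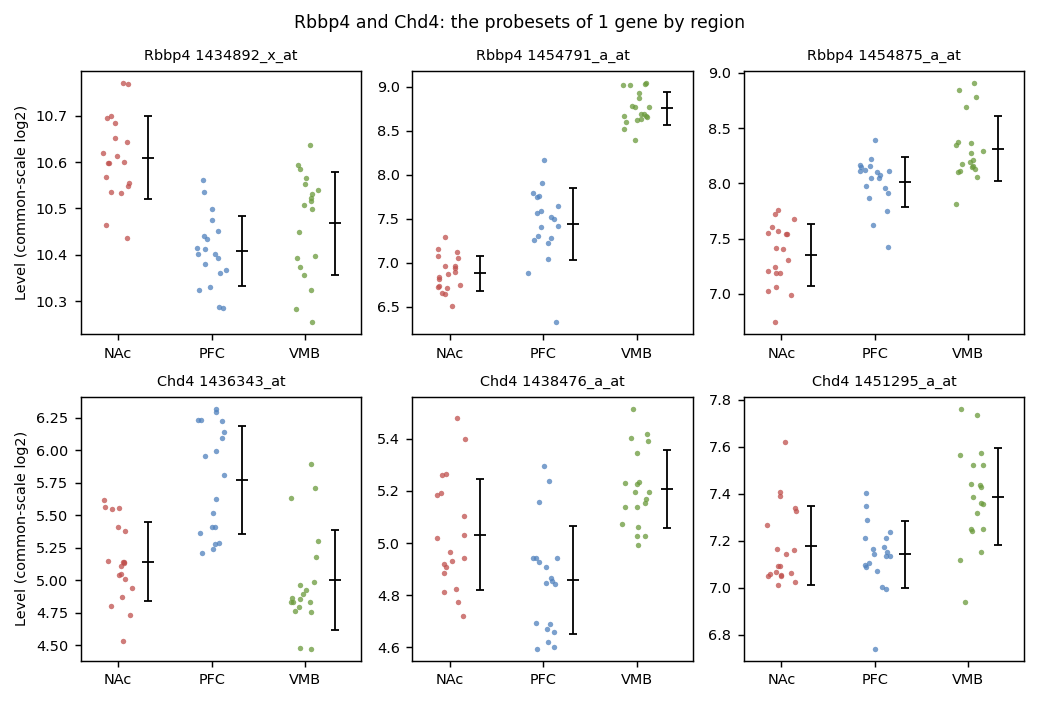
Level (common-scale log2) by region of the 3 probesets of Rbbp4 (top) and the 3 of Chd4 (bottom), one point per array with mean and SD of 19 arrays. For Rbbp4 the probeset 1454791_a_at is highest in VMB by 1.32 over PFC, where the leading probeset 1434892_x_at differs by 0.06. For Chd4 the probeset 1436343_at is highest in PFC and the other probesets are highest in VMB on this scale. As deposited, those other probesets are highest in NAc.

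SIN3A and SIN3B hold the deacetylase module of the Sin3 complex. Sin3b was at 8.32, 8.46 and 8.56 in NAc, at 7.70, 8.14 and 8.33 in PFC and at 7.75, 7.90 and 8.04 in VMB. No NAc array overlapped with a VMB array, and 18 of 19 NAc arrays lay above every PFC array. NAc was higher than VMB by 0.55 ± 0.033 (limma adjusted p = 5.59e-23) and higher than PFC by 0.33 ± 0.033 (limma adjusted p = 8.31e-14), and VMB was lower than PFC with a difference of −0.22 ± 0.033 (limma adjusted p = 3.38e-08). The probeset 1434637_x_at, whose suffix also marks probes that may bind other sequences, followed the leading one in all 3 comparisons. The probeset 1455039_a_at gave a larger fall in VMB, −1.10 for VMB minus PFC with no overlap, and 0.03 for NAc minus PFC. The probeset 1425630_at was lower in NAc than in PFC with a difference of −0.54, but by the deposited values higher by 0.09.

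Sin3a was at 6.22, 6.75 and 7.01 in NAc, at 6.48, 6.65 and 6.80 in PFC and at 5.95, 6.25 and 6.44 in VMB. PFC and VMB did not overlap, and 18 of 19 NAc arrays lay above every VMB array. The difference was −0.40 ± 0.042 (limma adjusted p = 7.24e-13) for VMB minus PFC and 0.48 ± 0.042 (limma adjusted p = 1.15e-15) for NAc minus VMB. NAc minus PFC was 0.08 ± 0.042 (limma adjusted p = 0.0925, 95% interval −0.01 to 0.16). The probeset 1419102_at showed the same low VMB level, with a difference of −0.92 from PFC without overlap, and 1419101_at was lower there with a difference of −0.25. For NAc minus PFC, 1419102_at gave −0.03 (limma adjusted p = 0.719). There 1419101_at was called lower, at −0.17 (limma adjusted p = 0.00773), the reverse of the leading probeset. As deposited these values were 0.61 and 0.46.

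SAP18, SAP30 and SUDS3 are accessory subunits that hold the Sin3 core together or link it to deacetylases. Sap18 with Sap18b was at 9.51, 9.65 and 9.93 in NAc, at 9.31, 9.47 and 9.65 in PFC and at 9.06, 9.23 and 9.47 in VMB. NAc and VMB did not overlap, by 0.44 ± 0.037 (limma adjusted p = 9.09e-17). NAc exceeded PFC by 0.20 ± 0.037 (limma adjusted p = 1.64e-06), and VMB was lower than PFC with a difference of −0.24 ± 0.037 (limma adjusted p = 4.72e-08). The other 4 probesets of Sap18 did not follow it in every comparison. For VMB minus PFC they gave −0.21, 0.19, 0.01 and −0.09, and for NAc minus PFC −0.11, 0.22, 0.42 and 0.20. The first of them was 0.57 for NAc minus PFC as deposited, and the last was 0.07 for VMB minus PFC. Signals of Sap18 and Sap18b cannot be told apart in any of them.

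Among the leading probesets, that of Sap30 varied most between mice in every region. It was at 5.65, 6.39 and 6.72 in NAc, at 6.10, 6.51 and 7.24 in PFC and at 5.34, 5.97 and 6.82 in VMB. Its SD of 0.31, 0.27 and 0.36 in these regions stood at percentiles 92.2, 95.5 and 95.3 of all tested probesets. VMB was lower than PFC with a difference of −0.53 ± 0.099 (limma adjusted p = 2.69e-06) and NAc was higher than VMB by 0.35 ± 0.099 (limma adjusted p = 0.00124), both with overlapping arrays. NAc minus PFC was −0.18 ± 0.099 (limma adjusted p = 0.0850), and 0.45 in the deposited values.

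Suds3 had its lowest mean in NAc, where Sin3b had its highest. It was at 8.20, 8.32 and 8.60 in NAc, at 8.63, 8.75 and 8.88 in PFC and at 8.27, 8.62 and 8.96 in VMB. Every NAc array lay below every PFC array, with a difference of −0.40 ± 0.037 (limma adjusted p = 8.55e-15), although as deposited the difference was 0.26. NAc was lower than VMB with a difference of −0.23 ± 0.037 (limma adjusted p = 9.14e-08), again turned to 0.38 in the deposited values. VMB was lower than PFC with a difference of −0.17 ± 0.037 (limma adjusted p = 6.85e-05), in the same direction in both. The other Suds3 probeset did not share this order, with 0.01 for NAc minus PFC and 0.09 for NAc minus VMB. The SD of the leading probeset in PFC, 0.063, stood at percentile 1.06 of all tested probesets.

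MTA1 and MTA2 are NuRD scaffolds that bind the deacetylases and the histone-binding subunits, and each was read by 1 probeset. Mta1 was at 6.38, 6.59 and 6.82 in NAc, at 7.12, 7.46 and 7.67 in PFC and at 6.85, 7.07 and 7.40 in VMB. NAc did not overlap with PFC or with VMB. Mta1 was lower in NAc than in PFC with a difference of −0.85 ± 0.042 (limma adjusted p = 1.12e-26), a fold of 1.80 and the largest difference of the leading probesets in any comparison. Its direction was kept in the deposited values at −0.22. It was lower in NAc than in VMB with a difference of −0.48 ± 0.042 (limma adjusted p = 1.04e-15) on the common scale and 0.06 as deposited. VMB was lower than PFC with a difference of −0.37 ± 0.042 (limma adjusted p = 6.94e-12).

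Mta2 followed the same order with smaller steps. It was at 6.24, 6.44 and 6.72 in NAc, at 6.32, 6.72 and 6.96 in PFC and at 6.17, 6.58 and 6.78 in VMB, with all regions overlapping. NAc was lower than PFC with a difference of −0.27 ± 0.045 (limma adjusted p = 3.85e-07), and VMB lower than PFC with a difference of −0.14 ± 0.045 (limma adjusted p = 0.00407). NAc minus VMB was −0.13 ± 0.045 (limma adjusted p = 0.00919), a call that was lost with each array centred on its median, with array weights and with trended robust moderation. As deposited, NAc minus PFC was 0.35 and NAc minus VMB 0.39.

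For CHD4, the NuRD remodeller, the leading probeset had its highest mean in VMB, on the common scale but not as deposited. No other member had this for its leading probeset, but the Rbbp4 probesets 1454791_a_at and 1454875_a_at were highest in VMB on both scales. The leading Chd4 probeset was at 7.01, 7.09 and 7.62 in NAc, at 6.74, 7.14 and 7.40 in PFC and at 6.94, 7.39 and 7.76 in VMB. VMB was higher than PFC by 0.24 ± 0.056 (limma adjusted p = 8.17e-05), and NAc was lower than VMB with a difference of −0.21 ± 0.056 (limma adjusted p = 6.35e-04) on the common scale and higher by 0.35 as deposited. NAc minus PFC was 0.04 ± 0.056 (limma adjusted p = 0.555, 95% interval −0.08 to 0.15). The probeset 1438476_a_at followed it, by 0.35 for VMB minus PFC, whereas 1436343_at gave −0.77 for VMB minus PFC and −0.63 for NAc minus PFC. For 1438476_a_at NAc minus VMB was −0.17 on the common scale and 0.24 as deposited. As deposited, NAc minus PFC was −0.01 for 1436343_at. That probeset ranged from 5.21 to 6.32 in PFC, and its SD there of 0.42 stood at percentile 99.02 of all tested probesets. The low probesets 1438476_a_at and 1436343_at were above the filter on 50 and 55 of 57 arrays, the first of them on 12 of 19 in PFC.

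Taking the leading probesets together, 7 of 10 genes were called for NAc minus PFC (limma, adjusted p under 0.01), 4 higher and 3 lower, against 72.5% of all tested probesets, of which 38.6 points were higher and 33.9 lower. For VMB minus PFC 9 of 10 were called, 1 higher and 8 lower, against 72.8% of all tested probesets, of which 37.7 points were higher and 35.2 lower. For NAc minus VMB all 10 were called, 6 higher and 4 lower, against 74.7%, of which 39 points were higher and 35.7 lower. Most probesets on the array differed between regions, so a call on its own says little about these genes in particular. The median difference of the members was 0.06, −0.23 and 0.25 in these comparisons, against 0.03, 0.02 and 0.02 over all tested probesets. The median size was 0.20, 0.24 and 0.40, against 0.28, 0.30 and 0.31. Arrays of the paired regions did not overlap for 2 genes (Suds3 and Mta1) in NAc minus PFC, against 21.9% of all tested probesets. The same held for 2 genes (Rbbp7 and Sin3a) in VMB minus PFC, against 23.9%, and for 4 (Rbbp7, Sap18, Sin3b and Mta1) in NAc minus VMB, against 23.1%. As deposited, the members stood at 9 higher and 1 lower for NAc minus PFC, 1 and 7 for VMB minus PFC, and 9 and 0 for NAc minus VMB. Over all tested probesets, 53.3% of the calls for NAc minus PFC were higher on the common scale and 94.3% as deposited, with 52.2% and 89.0% for NAc minus VMB and 51.7% and 68.3% for VMB minus PFC. The comparisons share arrays and are not independent of each other.

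**Figure D3:**
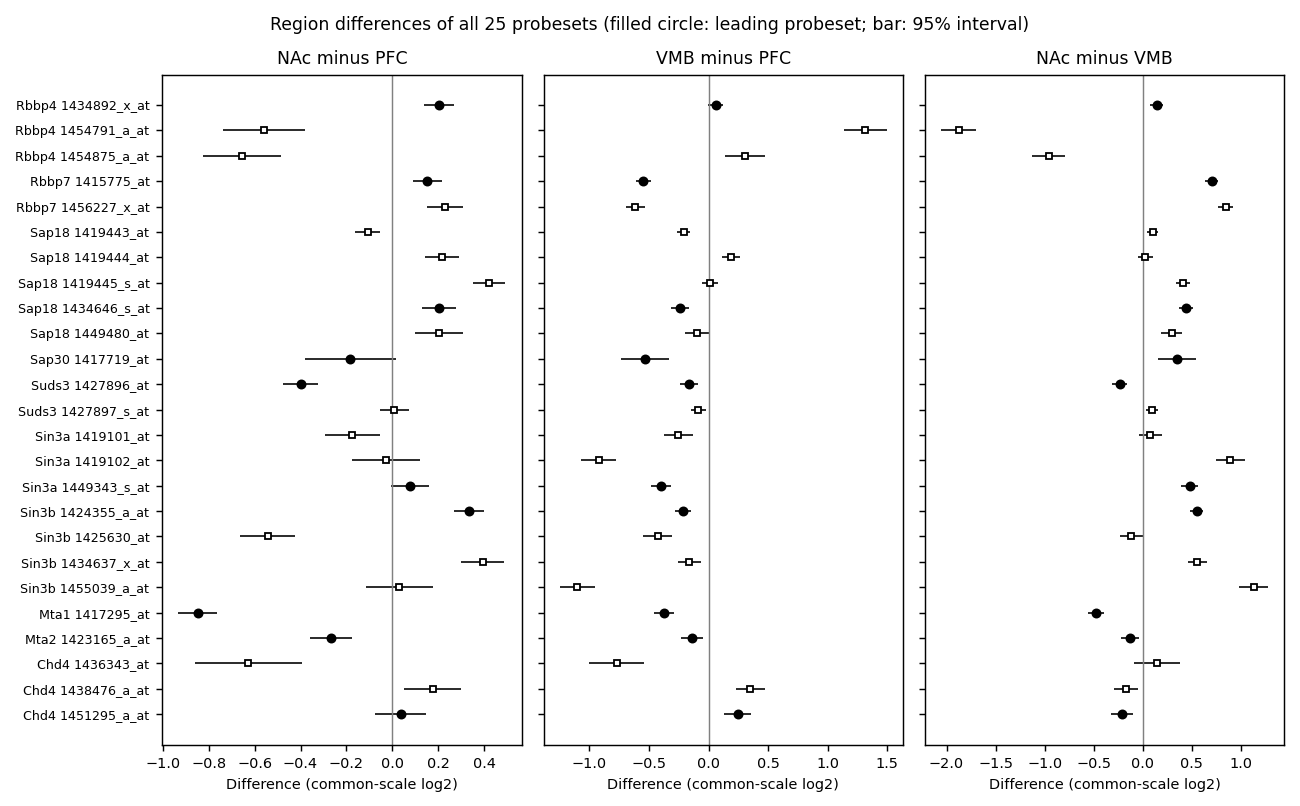
Difference between regions (common-scale log2) with its 95% interval for each of the 25 probesets in 3 comparisons, where filled circles mark the leading probeset of a gene and open squares the others. The leading probesets of Mta1 at −0.85 for NAc minus PFC and of Rbbp7 at 0.70 for NAc minus VMB are the largest of their kind, and the probesets of Rbbp4, Sin3b and Chd4 spread to both sides of 0. On the deposited scale the NAc minus VMB values of Mta1, Mta2, Suds3 and Chd4 would lie above 0.

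Of the 7 genes with several probesets, 4 had probesets called in both directions for NAc minus PFC, and 2 each for VMB minus PFC and NAc minus VMB. The share over all genes with several probesets was not computed, so these counts are not a result about these genes. The regional order of Rbbp7 is borne by 2 probesets, 1 of which, 1456227_x_at, carries the suffix for probes that may bind other sequences. Suds3 rests on 1 of its 2, and Mta1, Mta2 and Sap30 have only 1. In bulk tissue, a different share of a cell type and a different amount of RNA per cell cannot be told apart. The oligodendrocyte markers moved with the regions, with all 7 tested markers higher in NAc than in PFC. Within a region, 5 of 75 member relations to the mean of these markers had an unadjusted permutation p under 0.05, against 6.18%, 4.87% and 5.56% of all tested probesets in NAc, PFC and VMB. The part of these cells in the regional differences was not tested.

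The markers of other cell types were set against the 25 member probesets in the same way, and these relations were chosen after the data had been seen. For microglia 6, 1 and 6 of 25 member probesets had an unadjusted permutation p under 0.05 in NAc, PFC and VMB, against 29.1%, 9.27% and 23.6% of all tested probesets. The microglia counts are near these shares or below them, so they are not a result about these genes. For astrocytes the counts were 2, 3 and 1, against 3.8%, 10.5% and 9.01%, and for endothelial cells 1, 2 and 5, against 6.18%, 10.6% and 11.6%. The largest absolute r with the microglia markers in each region, and the next in NAc, are given with p not adjusted for the number of relations. Suds3 in NAc had r = 0.72 (permutation p = 4.8e-04, rho = 0.58, permutation p = 0.00997) and 0.60 without the 2 mice farthest in the markers. The Rbbp4 probeset 1454875_a_at in NAc had r = −0.71 (permutation p = 7.1e-04, rho = −0.65, permutation p = 0.00302) and −0.63 without them. The Sin3b probeset 1425630_at in VMB had r = −0.72 (permutation p = 2.2e-04, rho = −0.79, permutation p = 1.4e-04) and −0.69 without them. Mta1 in PFC had r = −0.62 (permutation p = 0.00521, rho = −0.74, permutation p = 6.4e-04) and −0.69 without them. The mean level of the 6 microglia markers lay between 8.13 and 8.50 in NAc, between 7.87 and 8.32 in PFC and between 7.71 and 8.10 in VMB. The part of these cells in the member levels was not tested.

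The deacetylases and the other subunits give the setting for these genes. Among 35 listed further subunits and recruiting factors, 29 were tested. For NAc minus PFC 14 were higher and 12 lower, for VMB minus PFC 11 and 12, and for NAc minus VMB 16 and 7. As deposited these counts were 21 and 5, 12 and 11, and 24 and 2. On the common scale 38.6%, 37.7% and 39% of all tested probesets were higher in these comparisons, and 33.9%, 35.2% and 35.7% lower. Most probesets on the array were called, so the counts alone say little about these genes. The median difference of the 29 was 0.15, 0.02 and 0.15, against 0.03, 0.02 and 0.02 over all tested probesets. Hdac1, 1 of the 2 deacetylases shared by both complexes, was higher than PFC in NAc by 0.22 and in VMB by 0.37. Hdac2, the other, was lower in VMB than in PFC with a difference of −0.28, and its NAc minus PFC value was 0.15 (limma adjusted p = 0.119). The largest falls against PFC were those of Gatad2b, a NuRD subunit that links the MBD proteins to CHD4, with a difference of −2.08 in NAc and −2.45 in VMB. Kdm5a, a histone H3K4 demethylase found with Sin3, was also lower, with differences of −2.05 and −1.82. Its common-scale means were 4.22 in NAc and 4.45 in VMB, under the 4.5 used as the limit for low values, so these sizes are not exact. The filter had set that limit on the deposited values, and the means of Max and Mxd1 below are likewise on the common scale. The largest rises in NAc against VMB were those of Bcl11b and Bcl11a, zinc-finger factors that bring NuRD to DNA, by 3.74 and 2.33. Both were also higher in NAc than in PFC, by 2.08 and 1.04. BCL11B is an established factor of striatal projection neurons, whose markers were highest in NAc here. Max, the partner of the MXD proteins that recruit Sin3, was higher in VMB than in PFC by 1.001 and lower in NAc than in VMB with a difference of −2.39. The mean of Max in NAc was at that same limit, so its differences are not exact in size either. Mxd1 was higher in VMB than in PFC by 0.67, with a PFC mean of 4.33 under the limit, and Gatad2a, the paralog of Gatad2b, was lower in NAc than in VMB with a difference of −1.22.

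Spread between mice within a region differed between members and between probesets. The median SD of the 10 leading probesets was 0.117 in NAc, 0.119 in PFC and 0.118 in VMB, against 0.159, 0.134 and 0.165 over all tested probesets. In these regions 7, 7 and 8 of the 10 genes lay below the median probeset in SD. Over all 25 member probesets, 14, 13 and 15 lay below the median and 2, 6 and 2 above percentile 90, among them the Rbbp4 probeset 1454791_a_at and the Chd4 probeset 1436343_at in PFC. The leading probesets were chosen for a high mean, and this comparison is a description only.

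Levels were also compared between regions over the 18 arrays of each pair of regions that share a number in their titles. Of 30 such relations, 0 passed an unadjusted permutation p of 0.05 by Pearson's r or by Spearman's rho, against 5.07% (NAc and PFC), 6.05% (NAc and VMB) and 5.63% (PFC and VMB) of all tested probesets by Pearson's r. The r was positive for 5, 8 and 10 of the 10 genes in these pairs, against 60.2%, 64.6% and 52.0% of all tested probesets. The values ran from −0.45 (Mta1, NAc and VMB, permutation p = 0.0583, rho = −0.36, permutation p = 0.143) to 0.45 (Sap30, NAc and VMB, permutation p = 0.0644, rho = 0.44, permutation p = 0.0696), with an adjusted p of 0.834 for each. Over the remaining arrays, once the 2 most distant in NAc were left out, these were −0.22 and 0.37. As deposited 3 of the 30 relations passed the unadjusted threshold. Since the numbers are not stated to mark the same animals, these values do not show whether the subunits vary together across the regions of 1 mouse.

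Relations between members within a region were tested for Rbbp4, Rbbp7, Sin3a and Chd4 against the other 9 genes, which makes 30 different pairs in each region. Of these, 6, 3 and 4 pairs had an unadjusted permutation p under 0.05 in NAc, PFC and VMB, and 1, 0 and 0 were called by limma at an adjusted p under 0.01. Over all tested probesets, 24%, 7.53% and 15.1% of the relations to these 4 genes passed the unadjusted threshold, so the member counts are not a result about these genes. A pair of 2 of the 4 genes was fitted both ways, and its adjusted p depends on which gene is the predictor. The call was Sap30 and Chd4 in NAc. Mice with more Chd4 had less Sap30, with r = −0.82 (permutation p = 2.0e-05), rho = −0.75 (permutation p = 4.0e-04) and r = −0.86 without the 2 mice farthest in Chd4 (limma adjusted p = 4.45e-05). In NAc 30.6% of all tested probesets were called against Chd4, so this relation is 1 of many. The first principal component of NAc held 47.0% of the variance, with absolute r of 0.85 to Sap30 and 0.88 to Chd4, and with that component as a covariate the adjusted p was 0.542. In VMB the r of Sap30 and Chd4 was −0.64 (permutation p = 0.00328, rho = −0.59, permutation p = 0.00883, limma adjusted p = 0.0998) and in PFC it was −0.03 (permutation p = 0.882, rho = −0.03, permutation p = 0.916, limma adjusted p = 0.990). What the component stands for was not tested.

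**Figure D4:**
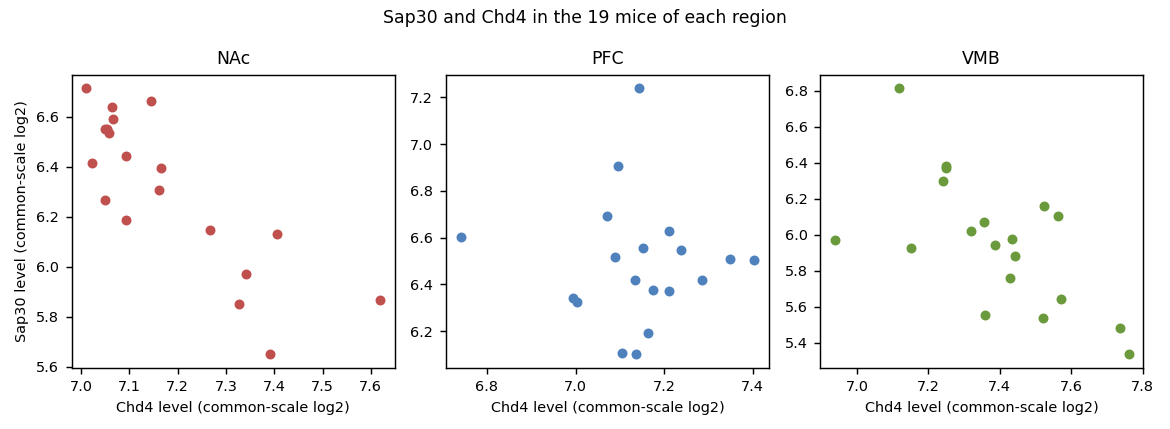
Sap30 level against Chd4 level (both common-scale log2, leading probesets), one point per mouse in each of the 3 regions. In NAc the points fall from upper left to lower right with r = −0.82, in VMB with r = −0.64, and in PFC with r = −0.03.

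No other relation was called, and the largest for each gene are given with limma's adjusted p. In NAc 0.00505% of all tested probesets were called against Rbbp4, and 0% against Rbbp7 and against Sin3a. There the largest for Rbbp4 was with Suds3 (r = 0.48, permutation p = 0.0361, rho = 0.33, permutation p = 0.168, adjusted p = 0.528), which fell to 0.29 without the 2 mice farthest in Rbbp4. The largest for Rbbp7 was with Chd4 (r = −0.66, permutation p = 0.00250, rho = −0.62, permutation p = 0.00520, adjusted p = 0.0612 with Rbbp7 as the predictor and 0.0122 with Chd4), and it was −0.74 without the 2 mice farthest in Rbbp7. Sin3a had r = −0.30 with Sap18 (permutation p = 0.218, rho = −0.07, permutation p = 0.771, adjusted p = 0.794).

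In VMB the relation of the paired histone-binding subunits Rbbp4 and Rbbp7 did not pass the adjusted threshold (r = 0.64, permutation p = 0.00386, rho = 0.61, permutation p = 0.00655, adjusted p = 0.0981 with Rbbp4 as the predictor and 0.247 with Rbbp7). The r was 0.58 without the 2 mice farthest in Rbbp4, and 2.85% of all tested probesets were called against Rbbp4 in that region. In PFC the same pair had r = 0.45 (permutation p = 0.0558, rho = 0.40, permutation p = 0.0908, adjusted p = 0.623). Sin3a in VMB had r = 0.43 with Mta1 (permutation p = 0.0636, rho = 0.37, permutation p = 0.118, adjusted p = 0.99995).

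Of the 3 pairs in PFC with an unadjusted permutation p under 0.05, 2 fell and 1 did not when the most distant mice were left out. Sap30 with Rbbp7 had r = 0.59 (permutation p = 0.00930, rho = 0.42, permutation p = 0.0727, adjusted p = 0.584), which fell to 0.24 without the 2 mice farthest in Rbbp7. This pair had r = 0.60 in NAc (permutation p = 0.00652, rho = 0.48, permutation p = 0.0404, adjusted p = 0.0695). In VMB it had r = 0.57 (permutation p = 0.00999, rho = 0.52, permutation p = 0.0232, adjusted p = 0.240). Without the 2 mice farthest in Rbbp7 the r was 0.59 in NAc and 0.48 in VMB. Mta2 with Chd4 had r = 0.57 (permutation p = 0.0120, rho = 0.43, permutation p = 0.0691, adjusted p = 0.573), which fell to 0.31 without the 2 farthest in Chd4. Suds3 with Chd4 had r = 0.52 (permutation p = 0.0215, rho = 0.37, permutation p = 0.116, adjusted p = 0.760), and 0.57 without the same 2 mice. Sin3a had r = −0.31 with Sap30 (permutation p = 0.193, rho = −0.23, permutation p = 0.339, adjusted p = 0.821). No probeset was called against any of the 4 genes in PFC, nor against Rbbp7, Sin3a or Chd4 in VMB.

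For each member, the probeset of another gene whose level was most like it over the 57 arrays, after removal of the region means, is given by its r as a description. These were Tob2 for Sap30 (0.80), Agpat1 for Chd4 (0.75), Prpf19 for Sin3b (0.73) and Gps1 for Sap18 (0.73). They were Wnk2 for Suds3 (0.71), Rap2c for Rbbp4 (0.71) and Nae1 for Rbbp7 (0.69). They were Ptdss2 for Sin3a (0.58), Usp27x for Mta2 (0.55) and Vamp2 for Mta1 (0.55), the least like of the 10. The r of Rbbp7 with Nae1 was 0.86 in NAc, 0.84 in VMB and −0.10 in PFC.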

How the data were processed

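Total RNA of single mice was hybridised to Affymetrix mouse expression arrays, 1 array per region and animal. The authors processed scans with GCOS, rejected arrays on quality and summarised probesets by RMA, and the deposited values are log2 expression. Whether regions were normalized together was not given in the sources used here, so all 57 arrays were quantile normalized together. Groups came from the sample titles. Probesets below 4.5 on all arrays were removed, leaving 19815 of 22626. Symbols came from the platform annotation, which named 1 gene for 20380 probesets, several for 691 and none for 1555. Region differences were fitted with limma 3.58.1 in R 4.3.3 on all 57 arrays, with Benjamini-Hochberg adjustment over all tested probesets, called under 0.01, a false discovery rate of 1%. Permutation tests were two-sided with 100000 permutations, and the share of all probesets passing was taken from the t distribution of r. Precision is limited by 19 arrays per region.

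The 10 genes are named with all their probesets. Further subunits were named by the 2 largest and 2 smallest called differences per comparison, and relations by the members called or, failing that, the largest absolute r. Members and lists were chosen with earlier results of these data known. Alternatives were the deposited scale, median centring, the number in the titles as a block, all probesets, robust moderation, array weights, the mean of a gene's probesets and leaving out PFC replicate 20. Scripts were tested on simulated data in which 200 of 19815 probesets were changed. For NAc minus PFC a difference of 0.2 was recovered in 38% of the 200 and one of 0.4 in 93%. In the real data 72.5% of all tested probesets were called for NAc minus PFC. The adjusted threshold is easier to pass with so many calls, so the simulated shares do not apply to the real differences.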

Additional observations from a re-analysis of the deposited data

How the results depend on the processing

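Of 240 values of the 30 member differences under 8 alternatives, 215 kept direction and side of the threshold, 7 were weaker, 4 stronger and 14 reversed. The fit with all probesets cannot change a difference. The mean of a gene's probesets cannot change those of Sap18, Sap30, Mta1 and Mta2. Part of the 215 was therefore fixed in advance. As deposited the reversed values were, for NAc minus PFC, Mta2 0.35, Sap30 0.45 and Suds3 0.26, and for NAc minus VMB, Chd4 0.35, Mta1 0.064, Mta2 0.39 and Suds3 0.38. The deposited array medians differ by region, and a shift of all probesets by 0.72 and 0.55 moves these. With array weights Chd4 NAc minus PFC was −0.043, and with each array centred on its median Rbbp4 VMB minus PFC was −0.031. With the mean of all probesets of a gene, NAc minus PFC was −0.14 for Chd4, −0.34 for Rbbp4 and −0.042 for Sin3a, VMB minus PFC was −0.059 for Chd4, and NAc minus VMB was −0.90 for Rbbp4, since the probesets disagree. Relations called between members in NAc went from 1 to 4 as deposited and to 0 with the first principal component as a covariate, and in VMB from 0 to 1 (Rbbp4 and Sap30). Same-number relations at an unadjusted p under 0.05 went from 0 to 3 as deposited and to 1 with that component removed. The cause was not tested. Arrays of the same number had a mean correlation of deviations of 0.056 (NAc and PFC), 0.071 (NAc and VMB) and 0.013 (PFC and VMB), and 2, 2 and 1 of 18 correlated best with their own number, so the numbers are not shown to pair arrays. With the number as a replicate block (consensus correlation 0.055) 7, 9 and 10 members were called, as without it. Further subunits, an alternative chosen after seeing the data, gave 24 calls for VMB minus PFC in place of 23 under the block. Without PFC replicate 20 the members called were 7, 9 and 10, the further subunits 26, 24 and 23, and relations 0. In simulation, with independent noise and 200 of 19815 probesets related to 1 probeset, a relation of r = 0.8 in NAc was recovered in 17% of the 200. The real arrays differ from this setting. In NAc 30.6% of all tested probesets were called against Chd4 and 0% against Rbbp7 and Sin3a. The simulated share therefore does not give the share of relations missed for a member.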
